A study of Mus musculus with 4 samples.

Results

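Internal gene body regions called in both lists are the 1724 accessible regions of wild type (WT) CD4+CD8+ (DP) thymocytes that lay inside an annotated mouse gene, stayed outside 1000 bp on either side of every annotated gene end, and overlapped a region of the Chaf1b knockout (KO) list by at least 1 bp. They made up 37.1% (95% interval 35.7 to 38.5) of the 4652 WT regions inside gene bodies and 11.3% of all 15215 WT regions. The other 2928 internal regions were called in WT only. Over the whole WT list 46.2% of regions had a KO region. The regions were chosen by the authors' calls in the WT and KO lists, so that count and everything below on KO against WT reads is a description without a test.

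The assay was ATAC-seq, which inserts sequencing adapters into accessible DNA with a transposase, on DP thymocytes (positive for both CD4 and CD8) sorted from C57BL/6 mice. The KO mice carried floxed Chaf1b alleles and Cd4-cre (Cd4-cre;CHAF1b floxp/floxp), and the WT mice carried the same floxed alleles with no Cre named in the labels (CHAF1b floxp/floxp). Each group had 2 replicates, and the authors merged both into 1 region list per group, so no value per replicate was used here and no difference below has a replicate check. Cd4-cre is driven by regulatory sequence of Cd4 and is carried in the KO mice only. The ages of the mice and whether replicates were separate animals are not stated in the labels.

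The product of Chaf1b is p60, a subunit of CAF-1 (chromatin assembly factor 1), a complex that places histones H3 and H4 on newly copied DNA. DP thymocytes are the stage at which T cell receptor alpha genes are rearranged and from which invariant natural killer T (iNKT) cells and conventional T cells are selected. Open chromatin inside a gene body can be an enhancer, a silencer, a binding site of an architectural protein such as CTCF, or the promoter of a shorter transcript that starts within the gene. The annotation used for the region lists gives gene ends but no exons, so that exonic and intronic regions could not be set apart.

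The depth behind the lists was solved from the deposited fold enrichments and p-values. The genome background came to 1.03 reads per position in KO and 1.37 in WT, a KO over WT depth ratio of 0.752, and a site with equal accessibility would hold 42.9% of its summed reads in KO. The KO list held 7645 regions, against 15215 in WT. At the start of Chaf1b itself the summit held 13 reads in KO and 14 in WT. A peak list does not show whether the floxed part of the gene was deleted. Marker genes of other cell types held few internal regions. Of the lists for B cells, myeloid, erythroid, epithelial with stromal, and natural killer cells, each with 6 to 8 genes, Ebf1 alone held a region called in both lists (16 reads in KO and 20 in WT). Among 10 DP thymocyte markers, 2 held such regions, Cd4 among them. Most housekeeping genes had no internal region at all. The 5 WT internal regions of that list of 20 genes, those in Actb, Sdha and Ywhaz among them, had 0 KO counterparts. Over all genes 37.1% of internal WT regions had one, and 5 regions are too few to read a difference from.

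One readily recognised class among the regions sat at transcript starts that lie deep inside a longer annotated gene. The windows printed next span 250 bases before to 50 after such a start, on the gene's own strand, from RefSeq (GRCm38.p6). They are shown because each lay wholly inside the WT interval of a region called in both lists. Among the list genes, the KO interval covered only part of the window in Dock10 and Lig4, and the Lig4 start itself lay outside it. Dock10, Egr2, Lig4 and Stag1 belong to the gene lists used below. Slc38a9, Plekha1, Ccdc77 and Fam214a had the highest WT fold enrichment among the other protein-coding genes whose window lay wholly inside such a WT interval, predicted ones left out. Capitals mark the letters of a GC box (GGGCGG, or CCGCCC on the other strand), of the core bound by ETS factors (CCGGAAG or CTTCCGG), of a CCAAT box (CCAAT or ATTGG) and of an E box (CACGTG).
Dock10, chr1:80665303-80665602, minus strand: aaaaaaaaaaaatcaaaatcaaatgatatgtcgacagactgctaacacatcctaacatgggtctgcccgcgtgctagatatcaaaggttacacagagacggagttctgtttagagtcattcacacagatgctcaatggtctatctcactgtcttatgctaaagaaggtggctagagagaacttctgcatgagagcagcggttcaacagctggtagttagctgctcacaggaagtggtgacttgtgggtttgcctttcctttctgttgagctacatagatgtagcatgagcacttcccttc
Egr2, chr10:67537316-67537615, plus strand: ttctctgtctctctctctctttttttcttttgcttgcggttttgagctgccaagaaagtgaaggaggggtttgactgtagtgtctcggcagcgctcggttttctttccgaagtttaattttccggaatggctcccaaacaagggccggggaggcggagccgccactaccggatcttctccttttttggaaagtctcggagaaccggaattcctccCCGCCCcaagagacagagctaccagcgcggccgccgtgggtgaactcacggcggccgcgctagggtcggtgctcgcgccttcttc
Lig4, chr8:9976262-9976561, minus strand: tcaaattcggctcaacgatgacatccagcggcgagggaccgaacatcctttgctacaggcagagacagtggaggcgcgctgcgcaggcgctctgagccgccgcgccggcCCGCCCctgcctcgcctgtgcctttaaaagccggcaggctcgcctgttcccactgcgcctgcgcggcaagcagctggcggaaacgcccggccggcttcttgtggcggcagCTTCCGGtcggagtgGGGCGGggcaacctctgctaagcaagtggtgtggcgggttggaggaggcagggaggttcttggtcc
Stag1, chr9:100643198-100643497, plus strand: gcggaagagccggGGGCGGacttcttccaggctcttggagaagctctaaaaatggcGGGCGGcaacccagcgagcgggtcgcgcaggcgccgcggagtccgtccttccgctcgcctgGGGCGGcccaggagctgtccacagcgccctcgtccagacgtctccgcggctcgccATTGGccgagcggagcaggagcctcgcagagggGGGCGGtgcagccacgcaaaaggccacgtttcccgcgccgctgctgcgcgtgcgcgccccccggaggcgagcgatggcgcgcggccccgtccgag
Slc38a9, chr13:112660516-112660815, plus strand: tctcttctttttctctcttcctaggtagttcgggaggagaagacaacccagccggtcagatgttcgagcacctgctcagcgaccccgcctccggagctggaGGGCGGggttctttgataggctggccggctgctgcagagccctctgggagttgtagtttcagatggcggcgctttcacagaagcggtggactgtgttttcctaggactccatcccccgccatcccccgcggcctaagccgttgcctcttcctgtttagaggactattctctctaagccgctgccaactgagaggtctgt
Plekha1, chr7:130865637-130865936, plus strand: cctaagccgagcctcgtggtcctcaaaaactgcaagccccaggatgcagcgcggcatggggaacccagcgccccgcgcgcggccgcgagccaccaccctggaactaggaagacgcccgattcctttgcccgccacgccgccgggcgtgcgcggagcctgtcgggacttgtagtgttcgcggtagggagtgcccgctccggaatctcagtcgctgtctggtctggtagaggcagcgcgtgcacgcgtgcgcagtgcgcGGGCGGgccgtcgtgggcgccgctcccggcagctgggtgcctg
Ccdc77, chr6:120357318-120357617, minus strand: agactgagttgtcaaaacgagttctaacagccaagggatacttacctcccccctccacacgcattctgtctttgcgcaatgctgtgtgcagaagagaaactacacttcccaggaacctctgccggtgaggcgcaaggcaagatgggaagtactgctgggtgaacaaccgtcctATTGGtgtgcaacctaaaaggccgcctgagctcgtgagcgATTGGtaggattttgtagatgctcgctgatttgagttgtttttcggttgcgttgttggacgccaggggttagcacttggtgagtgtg
Fam214a, chr9:74975861-74976160, plus strand: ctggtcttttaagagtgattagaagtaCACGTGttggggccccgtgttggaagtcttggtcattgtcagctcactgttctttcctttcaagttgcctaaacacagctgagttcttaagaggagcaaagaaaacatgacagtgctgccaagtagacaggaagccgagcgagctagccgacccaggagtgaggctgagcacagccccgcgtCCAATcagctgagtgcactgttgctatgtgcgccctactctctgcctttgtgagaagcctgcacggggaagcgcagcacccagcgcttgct
The Dock10 window held none of these motifs and 43.7% G and C. The Stag1 window held 4 GC boxes and 1 CCAAT box in 73.7% G and C, and the Lig4 window held 2 GC boxes and 1 ETS core.

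The regions at these starts had reads in both genotypes because the rule asks for a call in both lists. Dock10 encodes an exchange factor that activates small GTPases, and its region had 23 summit reads in KO and 52 in WT. Egr2, a zinc finger factor induced by T cell receptor signalling and needed for iNKT development, had 27 reads in KO and 28 in WT. Lig4, the ligase that seals DNA breaks in V(D)J recombination, had 13 reads in KO and 24 in WT. All of these are counts at 1 position from the pooled replicates of a group. Stag1 encodes a cohesin subunit and had 19 reads in KO and 34 in WT. Slc38a9, a lysosomal amino acid sensor, had 29 reads in KO and 48 in WT. Plekha1 encodes a phosphoinositide-binding adaptor and had 27 reads in KO and 51 in WT. The Ccdc77 region had 19 reads in KO and 31 in WT, and the Fam214a region had 25 in KO and 41 in WT. Egr2 thus had nearly as many KO as WT reads, and the other regions had fewer in KO. The KO and WT summits of Egr2 lay 330 bp apart and those of Stag1 259 bp apart, so for these genes the counts are from different positions.

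Over all genes, 276 of the 1658 regions on chromosomes of the start table (16.6%, 14.9 to 18.5) overlapped the window of a start that was more than 1000 bp from every gene end. Among internal regions called in WT only, 255 of 2846 did (8.96%, 7.94 to 10.1). The intervals do not overlap, but regions called in both lists were also the stronger ones in WT, so the shares were set side by side at like strength. For this the internal regions were split at equal numbers into 4 bins of WT fold enrichment. In the lowest bin the share was 10.2% (5.70 to 16.6) in both lists and 7.23% (5.69 to 9.03) in WT only. In the second bin it was 14.8% (10.6 to 19.8) in both lists and 8.78% (7.01 to 10.8) in WT only. In the third bin it was 16.0% (12.6 to 19.8) in both lists and 9.79% (7.70 to 12.2) in WT only. In the highest bin it was 18.5% (16.0 to 21.3) in both lists and 13.7% (9.80 to 18.3) in WT only. The share was higher in both lists within each of the 4 bins, while the intervals overlapped in all but the third. Strength within a bin was not matched further.

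**Figure D1:**
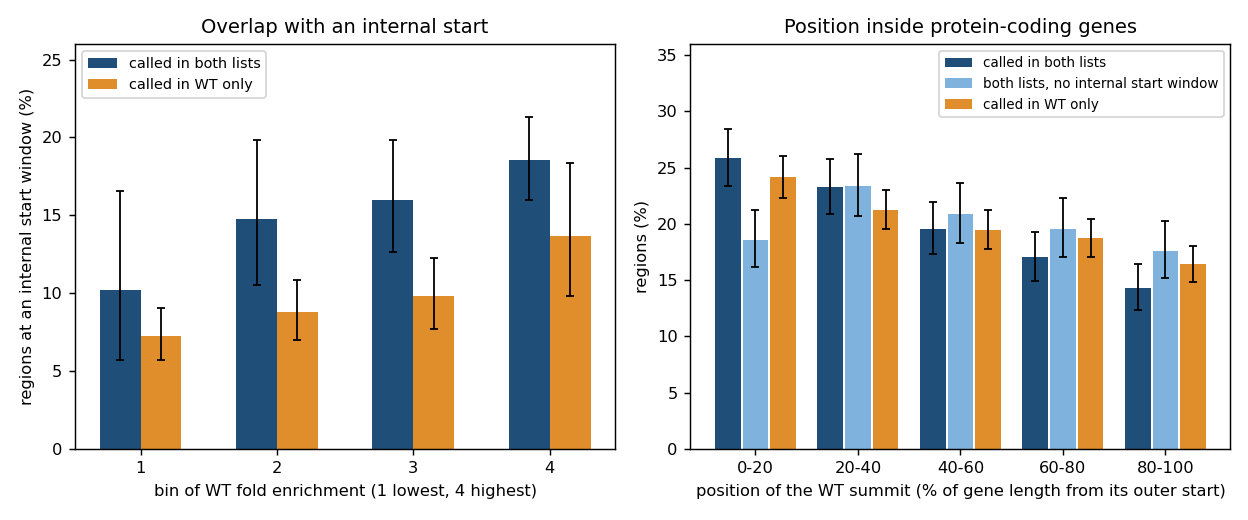
Left, share of internal gene body regions (y axis, %) that overlap the window of an internal start, by bin of WT fold enrichment (x axis), for regions called in both lists and in WT only, with exact 95% intervals. Right, share of regions (y axis, %) in each 20% of the gene (x axis, % of gene length from its outer start), for regions in both lists, those of them at no internal start window, and WT only regions. The share at internal starts climbs with WT fold to 18.5% in both lists and 13.7% in WT only. In both lists the excess in the first 20% of genes (25.9%) is absent (18.6%) once regions at internal starts are set aside. WT only regions have 24.2% there and were not split by internal starts.

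The 276 regions covered 326 internal starts of 277 genes, 270 of them protein-coding. At 220 of these 277 genes (79.4%) neither list had a region at the gene's outermost annotated start. Such absence was common, as 64.8% of all protein-coding genes had no region of either list at either gene end. That share covers both ends of a gene and not its start alone. Whether the outermost start was empty more often in the 277 genes than in others was therefore not tested. The outermost start had a KO region in 36 genes (13.0%) and a WT region in 57 (20.6%). The start covered lay a median of 5.84 kb inside the outermost one. In Stag1 the open start lay 45739 bp inside the gene and in Slc38a9 4577 bp inside, and neither gene had a region in either list at the outermost start. In Egr2 and Lig4, where the distance was 3097 bp and 1369 bp, the same held. Dock10, with 93413 bp, and Fam214a, with 23244 bp, had a region in both lists at the outermost start as well. Summits lay just before the annotated position, at a median of -43.5 bp in KO and -52.0 bp in WT. They lay upstream of it in 195 regions in KO and 208 in WT. The regions were picked by a window of 250 bases before to 50 after the start. That window itself favours upstream summits, so nothing is read from their side.

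The sequences of these starts differed in composition from internal starts with no region. A GC box was present in 64.4% (59.0 to 69.6) of the 326 windows with a region in both lists, in 62.6% (56.8 to 68.2) of the 289 windows with a WT only region, in 24.4% of the 4113 internal windows with neither, and in 35.7% of all 32851 windows. The ETS core followed the same order, with 16.9% (13.0 to 21.4), 16.6% (12.5 to 21.4), 3.77% and 8.86%. The E box was present in 12.0%, 10.0%, 4.94% and 7.15% of the same sets, and the CCAAT box in 44.5%, 35.3%, 35.1% and 37.4%. The TATA letters (TATAAA) went the other way, with 3.37%, 4.50%, 14.1% and 13.6%. The letters of NRF1 (GCATGCGC) were found in 3.07% (1.48 to 5.57), 7.96% (5.11 to 11.7), 1.14% and 2.71%, and those of YY1 (AAGATGGC) in 3.68%, 5.19%, 1.56% and 2.75%. CRE letters (TGACGTCA) were present in 2.76%, 3.81%, 0.851% and 1.79%, and RUNX letters (TGTGGTTT) in 0.307%, 0.692%, 2.16% and 1.78%. Median G and C content was 61.2%, 61.7%, 50.3% and 52.7% over the same sets, and the median number of CpG dinucleotides per 300 bases was 21, 21, 5 and 7. Windows with a region in both lists and with a WT only region thus had nearly the same G and C content, and both stood apart from internal starts without a region. Both strands were searched, a window could hold several motifs, and several windows can belong to the same gene. A match describes letters and not a bound site.

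**Figure D2:**
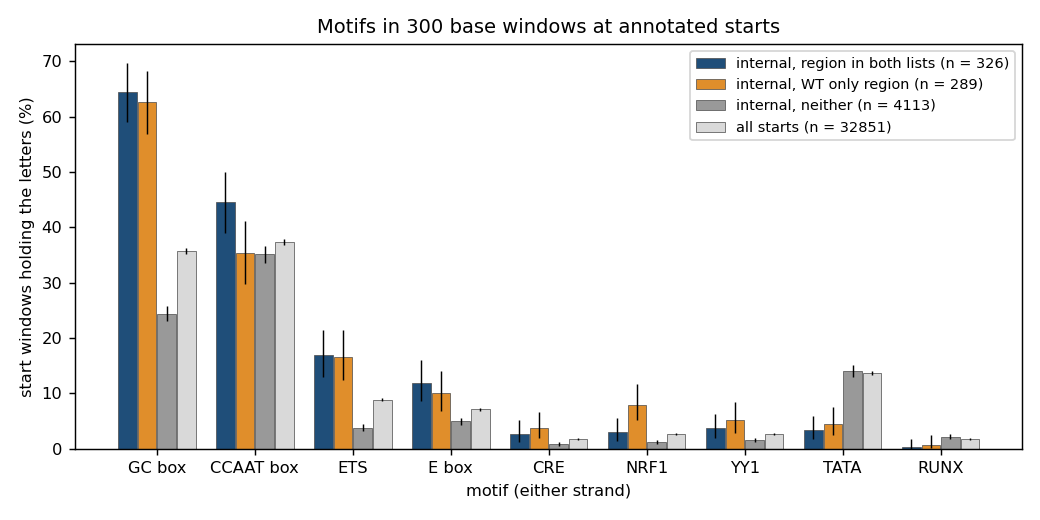
Share of start windows of 300 bases (y axis, %) that hold each of 9 motifs on either strand (x axis), for internal starts with a region in both lists, with a WT only region, with neither, and for all annotated starts, with exact 95% intervals. GC box, ETS and E box letters are more frequent where a region of either kind lies (64.4% and 62.6% for the GC box) than at internal starts with neither (24.4%), and TATA letters are less frequent.

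Most regions, 1382 of the 1658, lay at no internal start. Across all 1724 regions the median fold enrichment over local background was 6.73 in KO and 7.96 in WT, with 15 summit reads in KO and 23 in WT. The middle 50% of regions had 13 to 20 reads in KO and 18 to 32 in WT, so that most single regions rested on few reads. The fold enrichments are the authors' own and describe each list. The KO share of summed summit reads had a median of 40.5% (middle 50% 35.8 to 45.2), below the 42.9% given by depth. The same median was 42.4% in intergenic regions called in both lists (983 regions) and 38.9% in gene end regions called in both lists (4319 regions), so internal regions lay between the other classes. In raw reads KO had more than WT at 118 regions (6.84%) and as many at 54. The KO share lay above the 42.9% given by depth at 617 regions (35.8%).

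Intervals were narrower in the KO list. Median width was 266 bp in KO and 340 bp in WT, and the median ratio was 0.828. The regions overlapped 1727 KO intervals. With the KO interval of largest overlap taken for each region, widths summed to 526 kb in KO and 659 kb in WT. In 873 regions (50.6%) the KO interval lay wholly within the WT interval. Summits lay close together. The median distance between KO and WT summits was 28 bp, and 1192 regions (69.1%) had summits within 50 bp of each other. The width that a caller gives depends on depth, and the part of depth in the width difference was not tested. The WT only internal regions were weaker and narrower in WT than the regions in both lists, with medians of 5.64 fold, 14 summit reads and 250 bp, against 7.96 fold, 23 reads and 340 bp.

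Where exactly 1 KO and 1 WT region matched, 59 of 1700 regions (3.47%) had at least 1.5 times as many KO reads after scaling by depth, beside 2.73% of the 6875 such regions of all classes. At the other end 262 (15.4%) had at most 1/1.5 times as many, beside 17.3% of all classes. Since the contrast chose the regions, nothing is read from these shares. The KO share went down and then up with the number of reads. It was 45.5% (43.4 to 47.6) in the 96 regions with fewer than 25 summed reads, where a region had to pass the KO threshold to be counted. It was 41.5% from 25 to below 40 reads, 38.3% (37.7 to 38.9) from 40 to below 60, 39.6% from 60 to below 100, and 43.2% from 100 reads to below 150. The 26 regions with 150 reads or more had 48.7% (47.6 to 49.8). In the last group the local background, read in 10 kb around the summit, had a median KO over WT ratio of 0.942, against 0.667 in regions with 60 to below 100 reads. The 10 kb include the summit itself, so both values share reads and their moving together is not a separate result. The intergenic and gene end classes had 47.8% and 48.2% in the same top bin. These intervals cover counting error only.

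**Figure D3:**
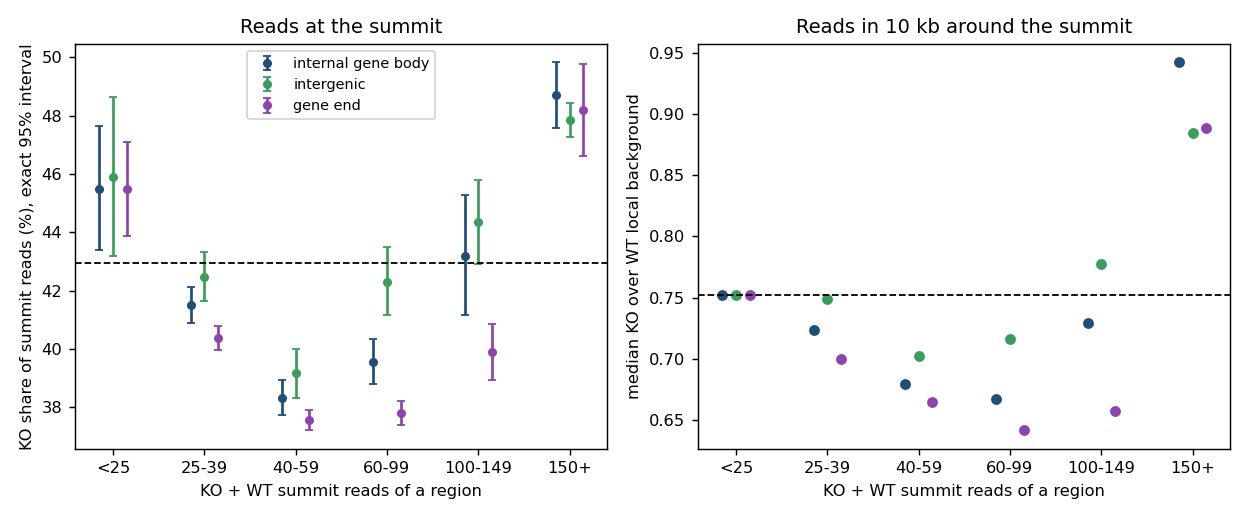
Left, KO share of summed summit reads (y axis, %, with exact 95% intervals) by summed reads of a region (x axis) for internal gene body, intergenic and gene end regions called in both lists; the dashed line is the 42.9% given by depth. Right, median ratio of KO over WT local background for the same bins, with the depth ratio of 0.752 as the dashed line. Internal regions are lowest in the third bin (38.3%) and highest at 150 reads or more (48.7%), and the local background ratio of that last bin is 0.942.

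The strongest internal regions were nearly equal in raw reads between genotypes. The region inside Chl1, a neural cell adhesion molecule, had 229 reads in KO and 235 in WT. Il31ra, a cytokine receptor chain, held one with 105 reads in KO and 108 in WT. Cdk8, a kinase of the Mediator complex, held one with 228 in KO and 219 in WT. Gphn, the scaffold protein gephyrin, had 136 in KO and 145 in WT. Camk1d, a calcium-dependent kinase, had 114 in KO and 121 in WT, and Gnb1l had 91 in KO and 100 in WT. Over the 10 regions of highest WT fold enrichment, of which 4 lie in predicted genes or a clone-named gene, the KO share ran between 45.8 and 51.0%, the local background ratio between 0.904 and 1.01, and the median summit distance was 5.5 bp. None of the 10 overlapped an internal start window. In the plot of KO against WT summit reads they follow the line of equal reads, and not the line of the depth ratio. No sequence of these regions was read here, and whether reads there map to one place only was not tested.

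The next strongest regions in named genes lay in Peak1 (106 reads in KO and 122 in WT), Pcca (32 in KO and 51 in WT), Kctd16 (68 in KO and 84 in WT) and Kcnip1 (103 in KO and 109 in WT). Pcca, a subunit of mitochondrial propionyl-CoA carboxylase, had the lowest KO share of these genes, 38.6% (28.1 to 49.9). In 30 regions the local background of either list exceeded the genome background more than 4 times. Their median local background was 8.40 in KO and 9.96 in WT and their median KO share was 47.7%. They included all 4 regions of Tmem267 on chromosome 13, where the background was 15.6 to 19.6 in KO and 23.0 to 27.9 in WT, and a region of 1637 bp in KO and 1645 bp in WT inside the myosin gene Myo3a. The widest of all, 2106 bp in KO and 2247 bp in WT, lay in a predicted gene. The Myo3a region had 274 reads in KO and 284 in WT over backgrounds of 46.7 in KO and 49.3 in WT. After Myo3a, the widest lay in Slc39a8, a zinc transporter gene (704 bp in KO and 1327 bp in WT), in Smo, the Hedgehog signal transducer (1218 bp in KO and 1241 bp in WT), in Igh, and in Plcl2 (1113 bp in KO and 1219 bp in WT).

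**Figure D4:**
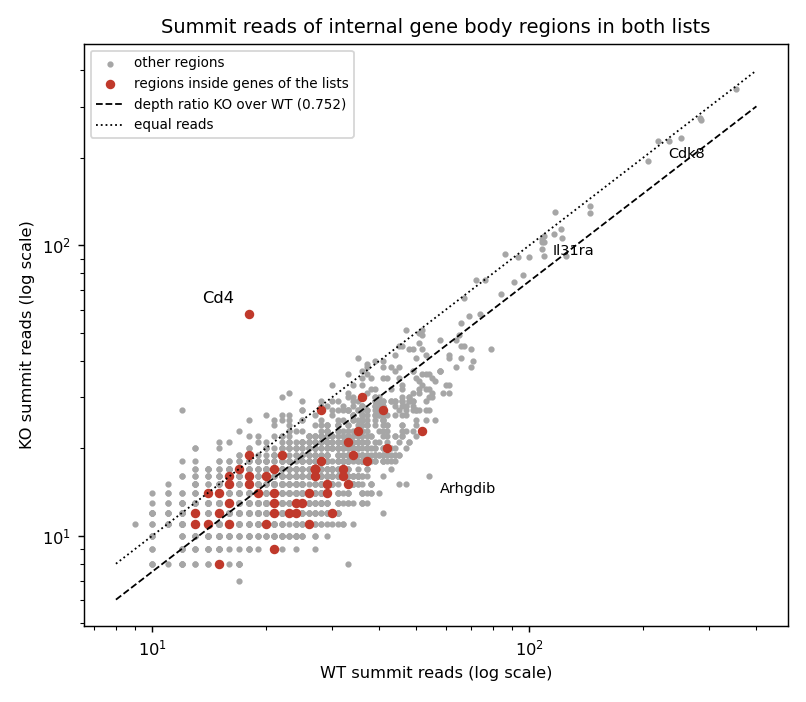
KO summit reads (y axis, log scale) against WT summit reads (x axis, log scale) for regions called in both lists inside gene bodies, 1 point per region, with regions in genes of the lists in red. The dashed line is the depth ratio of 0.752 and the dotted line is equal reads. Cd4 stands far above both lines (58 reads in KO and 18 in WT), and Cdk8 and Il31ra lie on the line of equal reads.

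Of 161 genes in 9 lists on thymocyte biology, 72 had an internal WT region and 40 had one called in both lists. Those 40 genes held 51 regions, 34.0% of the 150 internal WT regions of the lists, near the 37.1% over all genes. Their median KO share was 38.6%, beside 40.5% over all 1724 regions. Among these 51 regions and the Ebf1 region, the 95% interval of the KO share lay above the 42.9% given by depth in Cd4 and below it in Dock10, and it held that value in the other 50 regions. Reads per region are few, so an interval that holds the depth share does not show equal accessibility. Single lists rest on 7 to 41 internal WT regions and share some genes, so nothing is read from differences between their shares of regions called in both lists.

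**Figure D5:**
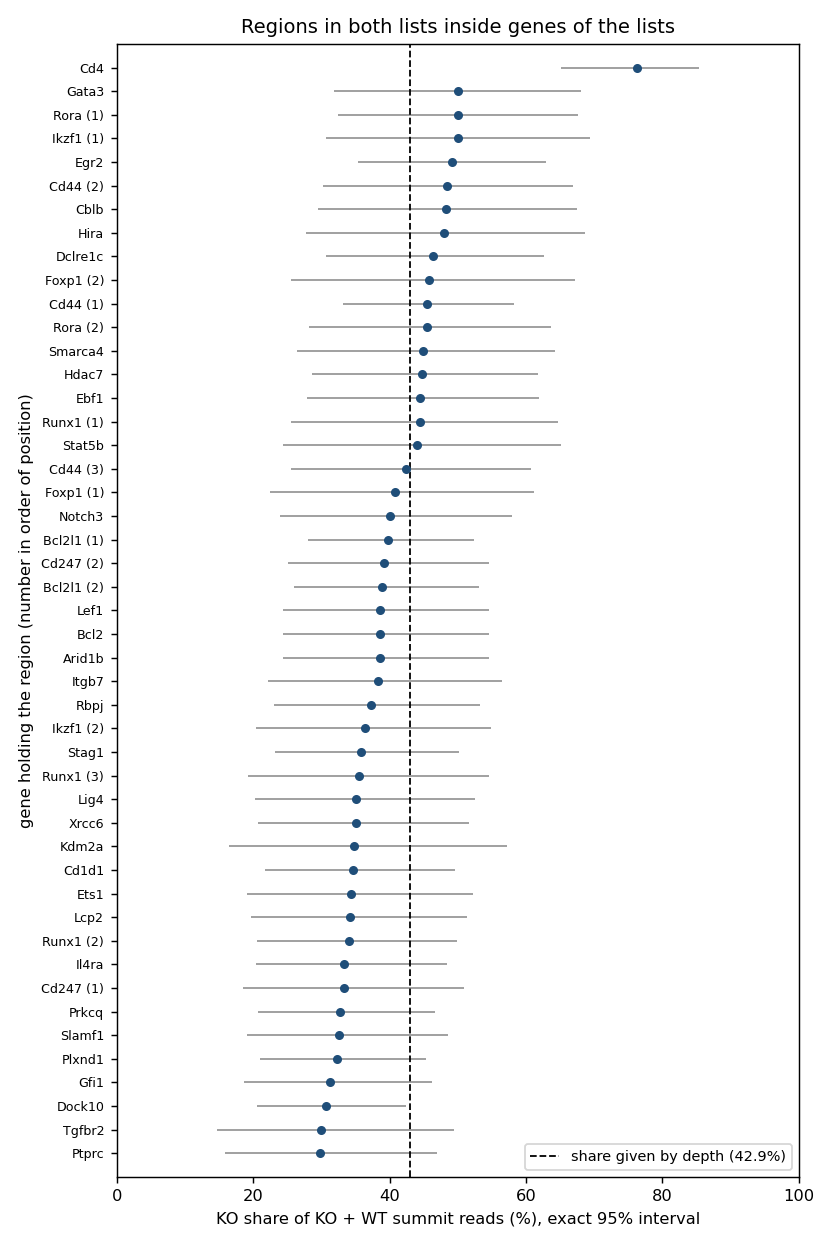
KO share of summed summit reads (x axis, %) with its exact 95% interval for regions called in both lists inside genes of the lists that are reported here (y axis, ordered by share, genes with several regions numbered by position). The dashed line is the 42.9% given by depth. Cd4 (76.3%) lies apart at the top, and Ptprc, Tgfbr2 and Dock10 are the lowest of those plotted, between 29.7 and 30.7%.

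Coreceptor and lineage choice genes were led by Cd4, the coreceptor that binds MHC class II. Its internal region (chr6:124885245-124885467 in WT, GRCm38 coordinates) lay 2.92 kb from the higher-numbered end of the gene and had 58 summit reads in KO and 18 in WT. The KO share was 76.3% (65.2 to 85.3), or 4.28 times the WT reads after scaling by depth. The local background in 10 kb around it was 9.30 in KO and 1.86 in WT (KO over WT 5.00), so the excess in KO was not confined to the summit and the fold enrichment was lower in KO (5.73) than in WT (6.64). Cd4-cre was carried by the KO mice alone and is built with Cd4 sequence, so reads from a transgene and reads from Cd4 itself cannot be told apart. Runx1, a runt domain factor of T cell development, held 3 regions with 12, 15 and 11 reads in KO and 15, 29 and 20 in WT, in order of position. Gata3, the zinc finger factor of the CD4 lineage, held 1 with 16 reads in KO and 16 in WT. Tox and Patz1 had internal regions in WT only.

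T lineage transcription factors held 12 regions called in both lists, of 41 internal WT regions (29.3%, beside 37.1% over all genes), in 7 of 16 genes. Rora, an orphan nuclear receptor, held 2 with 17 and 15 reads in KO and 17 and 18 in WT. Ikzf1, which encodes Ikaros, held 2 with 14 and 12 reads in KO and 14 and 21 in WT. In these genes the regions of a single gene thus differed from each other in KO share, but their intervals overlapped. Lef1, an HMG box factor, had 17 reads in KO and 27 in WT. Ets1 had 12 in KO and 23 in WT, and Gfi1, a zinc finger repressor, had 15 in KO and 33 in WT. Foxp1 held 2 regions with 11 and 11 reads in KO and 16 and 13 in WT. Tcf7, Bcl11b, Fli1, Foxo1, Bach2, Nfatc1, Nfatc2, Nfatc3 and Nfkb1 had internal regions in WT only.

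Genes of the T cell receptor complex and its signalling held 8 of 23 (34.8%, beside 37.1% over all genes) in 7 genes. Cd247, the zeta chain of the receptor, held 2 regions with 12 and 18 reads in KO and 24 and 28 in WT. Lcp2, the adaptor SLP-76, had 13 reads in KO and 25 in WT. Prkcq, protein kinase C theta, had 18 in KO and 37 in WT, and Ptprc, the phosphatase CD45, had 11 in KO and 26 in WT. All of these had KO shares below 42.9%, with intervals that held it. Cblb, a ubiquitin ligase that dampens the receptor, had 14 in KO and 15 in WT (48.3%, 29.4 to 67.5). Fyn, Plcg1 and Cd28 had internal regions in WT only.

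Genes of iNKT selection held 8 of 15 internal WT regions (53.3%, beside 37.1% over all genes) in 5 of 6 genes, with Runx1, Ikzf1 and Egr2 among them. The regions of Runx1 and Ikzf1 are also counted in the lists above. Cd1d1, which presents lipids to iNKT precursors, had 17 reads in KO and 32 in WT. Slamf1, a receptor of the SLAM family that gives a costimulatory signal in that selection, had 14 in KO and 29 in WT. Both shares lay below 42.9%, at 34.7% (21.7 to 49.6) and 32.6% (19.1 to 48.5). Fyn, the kinase downstream of SLAM receptors, was the gene of this list with internal regions in WT only.

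The recombination list held 3 of 7 internal WT regions (42.9%, beside 37.1% over all genes). Besides Lig4, Dclre1c, the Artemis nuclease that opens hairpins, had 19 reads in KO and 22 in WT, and Xrcc6, the Ku70 end-binding protein, had 14 in KO and 26 in WT. Dntt and Xrcc4 had internal regions in WT only. The list of Notch and progenitor genes held 5 of 9 (55.6%, beside 37.1% over all genes). Cd44, an adhesion receptor high on early progenitors, held 3 of them with 30, 15 and 14 reads in KO and 36, 16 and 19 in WT. Notch3 had 14 in KO and 21 in WT, and Rbpj, the DNA-binding partner of Notch, had 16 in KO and 27 in WT. Cd44 had KO shares of 42.4 to 48.4%, while both Notch pathway genes were lower. Notch1, Dtx1 and Il2ra had internal regions in WT only.

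In the migration and adhesion list, 6 of 21 (28.6%, beside 37.1% over all genes) were called in both lists, among them the 3 of Cd44 and that of Dock10. Itgb7, an integrin chain, had 13 reads in KO and 21 in WT. Plxnd1, the semaphorin receptor plexin D1, had 20 in KO and 42 in WT (32.3%, 20.9 to 45.3). Chromatin genes held 6 of 23 (26.1%, beside the same 37.1%). Besides Stag1 these were Hira, the chaperone of histone H3.3, with 12 reads in KO and 13 in WT, and Smarca4, the BRG1 remodeller ATPase, with 13 in KO and 16 in WT. Arid1b had 17 in KO and 27 in WT, the deacetylase gene Hdac7 had 17 in KO and 21 in WT, and the demethylase gene Kdm2a had 8 in KO and 15 in WT. Hira and Smarca4 thus differed little in raw reads, on small counts.

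Survival and cytokine receptor genes held 6 of 12 internal WT regions (50.0%, beside 37.1% over all genes). Bcl2l1, whose product BCL-XL keeps DP thymocytes alive, held 2 with 27 and 21 reads in KO and 41 and 33 in WT. Bcl2 had 17 in KO and 27 in WT. Il4ra had 16 in KO and 32 in WT, Tgfbr2 had 9 in KO and 21 in WT, and Stat5b had 11 in KO and 14 in WT. Both Bcl2l1 regions and that of Bcl2 had KO shares within 38.6 to 39.7%. Bcl2l11, Il21r, Ifngr1 and Stat3 had internal regions in WT only.

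At the extremes of the KO share, among regions with at least 40 summed reads, the lowest was inside Ppfibp1, which encodes a liprin, with 8 reads in KO and 33 in WT (19.5%, 8.82 to 34.9). Arhgdib, an inhibitor of small GTPases in blood cells, followed with 16 in KO and 54 in WT (22.9%, 13.7 to 34.4). Pcyt1b, of phosphatidylcholine synthesis, had 15 in KO and 47 in WT, Araf, a RAF kinase, had 11 in KO and 34 in WT, and Nsun6, an RNA methyltransferase, had 15 in KO and 45 in WT. Of the 10 lowest regions, those in Ppfibp1, Pcyt1b, Araf, Nsun6, Zfp46 and Nfe2l1 overlapped an internal start window. Among the 1658 regions on chromosomes with listed starts, 16.6% did. Over the whole set the KO share differed little by this class. Its median was 39.5% in the 276 regions at an internal start and 40.6% in the 1382 regions at none. The 10 were picked as extremes, so nothing is read from their overlap with internal starts. Prlr and Fut8, with shares of 25.6 and 26.5%, were also among the lowest. The local backgrounds of the 10 lowest were lower in KO too, with ratios of 0.467 in Ppfibp1 and 0.688 in Araf as the ends of the range. A local background includes the reads of the region itself.

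After Cd4, the highest shares were in Nedd4l, a ubiquitin ligase (25 reads in KO and 18 in WT, 58.1%, 42.1 to 73.0), Sdccag8 (30 in KO and 22 in WT), Lamc1, a laminin chain (23 in KO and 17 in WT), and Kcnq1, a potassium channel (31 in KO and 23 in WT). Rsph3a, Ibtk, Hsd11b1, Serinc5 and Kcnh1 followed, with shares of 53.9 to 56.5%. Of these 10 regions, that in Ibtk overlapped an internal start window, beside 16.6% of the 1658 regions on chromosomes of the start table. Apart from Cd4 these shares ran from 53.9 to 58.1% on 40 to 76 summed reads. After scaling by depth that was 1.56 to 1.85 times the WT reads. The intervals of Sdccag8 (43.2 to 71.3) and Kcnq1 (43.2 to 70.8) lay above the 42.9% given by depth, and those of the others besides Cd4 held it. Being picked as extremes, they are given as values only.

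At the limits of the rule, the smallest overlaps with a KO region were 15 bp in Tmem267 and 26 bp in Pdlim2, and the regions nearest to a gene end lay 1014 bp away in Mideas and 1015 bp away in Pik3ip1. Just outside, WT only regions lay 22 bp from a KO region in Smim10l1, 40 bp in Sdccag8 and 53 bp in Epha3. In all, 9 WT only regions were within 100 bp of a KO region.

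The regions lay in 1541 genes, of which 1285 were protein-coding (of 21887 in the annotation) and 234 were long noncoding RNA genes. Protein-coding genes with a region were long, with a median of 75.4 kb, against 17.2 kb over all protein-coding genes. The rule leaves out 1000 bp around every gene end and so favours long genes. Counted per region in genes with a known strand, the median gene length was 89.2 kb, and it was 89.4 kb for WT only internal regions. A region lay a median of 9.95 kb from the nearest gene end (9.44 kb in WT only regions), and 32.7% were within 5 kb. In genes with a known strand, 25.9% (23.4 to 28.4) of 1191 regions were in the first 20% of the gene from its outer start and 14.3% (12.3 to 16.4) in the last 20%. Without the regions at internal start windows these shares were 18.6% (16.1 to 21.3) and 17.6% (15.2 to 20.2), and the highest was 23.4% (20.7 to 26.2), from 20 to 40% of the gene length. WT only internal regions, not split by internal starts, had 24.2% (22.3 to 26.0) in the first 20% and 16.4% (14.9 to 18.1) in the last 20%. The ends of protein-coding genes with a region in both lists were called about as often as those of genes with a WT only internal region alone. A KO region lay at an end in 24.1% (21.8 to 26.6) of 1285 genes, against 24.2% (22.1 to 26.5) of 1487 genes. A WT region lay there in 39.4% and 39.6%. Over all protein-coding genes the values were 21.1% in KO and 34.6% in WT.

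A gene held several regions in 210 cases, and 52 genes held at least 3. Med12l, a Mediator subunit gene that spans 313 kb and encloses the purinergic receptor genes P2ry12 and P2ry14, held 6. Their reads ran from 12 to 24 in KO and from 18 to 50 in WT, with KO shares between 30.8 and 48.6%. Pde4d, a cAMP phosphodiesterase gene, held 5 with 29, 15, 29, 15 and 13 reads in KO and 34, 24, 46, 22 and 24 in WT, in order of position. Wwox, Nfia, Syne1, Maml2, Itga9, Ppm1h, Stk39, Hivep2 and Atp10a held 4 each, as did Tmem267.

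The immunoglobulin heavy chain locus Igh also held 6. The one with the most summit reads spanned 1173 bp in KO and 1219 bp in WT (chr12:113424259-113425477 in WT) and had 37 summit reads in KO and 58 in WT (38.9%, 29.1 to 49.5). The other 5, among the variable segments toward higher coordinates, had 12 to 22 reads in KO and 20 to 46 in WT, with KO shares of 30.8 to 45.9%. Variable segments are similar in sequence, and whether their reads map uniquely was not tested.

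Some regions sat very far from any gene end. Nrxn3, a synaptic adhesion gene, held 2 of them at 615 kb and 384 kb, with 7 and 9 reads in KO and 17 and 21 in WT. Lsamp held one at 502 kb (13 reads in KO and 25 in WT), Agbl4 one at 387 kb (25 in KO and 23 in WT) and Gpc6 one at 264 kb (14 in KO and 22 in WT). All rested on few reads, and in 4 of these 5 KO had the fewer.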

How the data were processed

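The samples were 4 ATAC-seq libraries of DP thymocytes, 2 KO and 2 WT. Per the labels, each deposited list was made from both replicates of a group. Per the submitters' processing notes, MACS2 2.1.4, deepTools 3.4.1, Bowtie2, Trim Galore, FastQC, Picard and GATK are named with mm10; settings, read shifting, duplicate removal and any exclusion list are not given in the sources used here, and each could move summits, widths and counts. The lists deposited by the authors give per region the -log10 of p and q, a fold enrichment and a score. The authors' fold was used to describe, rank or filter regions.

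In MACS2 output the p comes from a Poisson tail, and fold is pileup + 1 over background + 1, so summit pileup (here summit reads) and local background were solved. All pileups were whole within 0.05. The most frequent background gave the relative depth. Library totals were not used here.

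Gene ends, lengths and biotypes came from a RefSeq table of GRCm38.p6, the assembly behind mm10, and start windows and strands from a RefSeq table of 32851 starts on 20 chromosomes. No genome sequence was used here, so the planned sequence counts over the regions were replaced by counts over start windows. The motif letters were chosen after the data were seen, and those of NRF1 and YY1 were shortened after values for longer forms had been seen.

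Named genes were all list genes with a region, the 10 regions of highest WT fold, the 10 highest and 10 lowest KO shares at 40 or more summed reads, the 5 genes with most regions, and the 5 widest and 5 farthest regions; predicted genes were counted but not named, and a few others are left out here. Other genes, those with start windows shown and those with 4 regions included, were named after their values were seen. The regions and lists were chosen with earlier results of these data known. No test between groups was made. Intervals are exact Clopper-Pearson 95% intervals and cover counting error only; regions are not replicates. The solver and the overlap were tested on simulated data. Analyses ran under Python 3.11.15 with scipy 1.17.1, pandas 2.3.3, numpy 2.4.6 and, for plots, matplotlib 3.10.9.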

Additional observations from a re-analysis of the deposited data

How the results depend on the processing

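Over 6 results and 10 other settings, 51 of 60 values stayed within 1.5 times (counts) or within the interval of the reported value, 9 moved and 0 reversed. With both lists limited to a -log10 q of at least 10, 544 regions in 537 genes remained by count, the share of internal WT regions with a KO region was 30.2%, the median KO share of reads 41.5%, the median width ratio 0.873 and the median summit distance 21.0 bp. With a -log10 q of at least 5 the summit distance was 25.0 bp. With a reciprocal overlap of at least 50% the share was 33.1% and the width ratio 0.844. The cause was not tested, beyond that stricter settings keep fewer regions. A setting added after the data were seen dropped regions whose local background exceeded the genome background more than 4 times and gave 1694 regions, a share of 36.7% and a median KO share of 40.3%. No paired analysis was possible because each list pools both replicates of its group, and no replicate could be left out for the same reason. Depth limits single regions: at a median of 15 reads in KO and 23 in WT, modest differences are within counting error.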
